A study of Mus musculus with 6 samples.

Results

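Epcam, the matriptase gene St14, the prostasin gene Prss8 and the Kunitz-type inhibitor genes Spint1 and Spint2 were followed in mouse neural stem cells that were being reprogrammed toward pluripotency. They were chosen by gene symbol as the surface adhesion molecule and membrane protease system most closely tied to epithelial cells, to ask whether epithelial surface genes follow Cdh1, the E-cadherin gene. All 5 were found among the 20325 genes listed, and all 5 passed the filter on low counts. Nanog+E-cadherin+ cells (n = 3) were set against Nanog+E-cadherin- cells (n = 3), both sorted by antibody stain. Cells of both populations came from mice of mixed 129/Black 6 strain at postnatal day 4. In both, the mice carried a homozygous Stemcca allele at ColA1, which makes Oct4, Sox2, c-Myc and Klf4 when doxycycline is given, and a heterozygous rtta activator at Rosa26. Both populations were kept in doxycycline until day 7, and both were positive for Nanog protein, so the E-cadherin stain is the only labelled difference between them. The cells were fixed and permeabilised for the intracellular stain, and their RNA was recovered after the crosslinks were reversed. No uninduced neural stem cells and no finished pluripotent line were analysed here.

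EpCAM is a single-pass adhesion molecule of simple epithelia and of pluripotent cells, where it partners with claudins. Matriptase is a transmembrane serine protease and prostasin is a serine protease held at the membrane by a lipid anchor. The pair can activate each other at the epithelial surface, and matriptase also cuts EpCAM. HAI-1, the product of Spint1, and HAI-2, the product of Spint2, are membrane-bound inhibitors with Kunitz domains that hold both proteases in check. E-cadherin is the adhesion molecule of the adherens junction, and its loss and gain are commonly used to score transitions between mesenchymal and epithelial states.

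Total expected counts ran from 12345327 to 20934553 in Nanog+E-cadherin+ libraries and from 8851110 to 39630916 in Nanog+E-cadherin- libraries. Whether the replicates came from different cultures or mice is not labelled, and the p-values cover only the scatter among these libraries, which may be technical. Neural stem cell markers were present in both populations, with a summed level of 533 to 1235 CPM, a count scaled to library size, over 8 genes in Nanog+E-cadherin+ cells and 676 to 1350 CPM in Nanog+E-cadherin- cells. Sox2, which the Stemcca allele also makes, was the highest of the 8 in every library, at 329 to 612 CPM. Over the 6 libraries Nes stood at 74.7 to 360 CPM, Msi1 at 65.1 to 131 CPM and Olig2, the lowest, at 0.606 to 18.6 CPM. Of the markers of other epithelia, 6 keratinocyte genes summed to at most 9.43 CPM in Nanog+E-cadherin+ cells and 10.7 CPM in Nanog+E-cadherin- cells, and 6 trophectoderm and primitive endoderm genes to at most 0.973 CPM in Nanog+E-cadherin+ cells and 4.97 CPM in Nanog+E-cadherin- cells, with Sox17 at 0 in every library. The 6 choroid plexus and ependyma genes summed to 141 to 682 CPM in Nanog+E-cadherin+ cells and 158 to 497 CPM in Nanog+E-cadherin- cells. Of these Ttr was at 0 in every library, while Foxj1 (89.3 to 588 CPM over the 6 libraries), Otx2 (27.9 to 112 CPM), Folr1 (3.15 to 36.8 CPM) and Aqp1 (1.61 to 17.6 CPM) were detected in all 6. The 4 endothelial genes summed to 10.9 to 60.2 CPM in Nanog+E-cadherin+ cells and 7.52 to 41.3 CPM in Nanog+E-cadherin- cells, and the 4 immune genes to 6.04 to 9.32 CPM in Nanog+E-cadherin+ cells and 4.34 to 15.3 CPM in Nanog+E-cadherin- cells. The 8 pluripotency genes summed to 451 to 722 CPM in Nanog+E-cadherin+ cells and 407 to 442 CPM in Nanog+E-cadherin- cells, without overlap. The largest part was Pou5f1, the Oct4 gene, and Oct4 is also made by the Stemcca allele. Pou5f1 overlapped, at 476, 303 and 304 CPM in Nanog+E-cadherin+ replicates 1 to 3, against 248, 321 and 308 CPM in Nanog+E-cadherin- replicates 1 to 3. Nanog, a marker of the gate, is also in the sum. Of the 6 tested, 1, Tdgf1, passed edgeR's test with the replicate block, against 0.305% of all genes. A set of 6 genes that an earlier look at these data tied to background sequence summed to 1.41, 83.4 and 27.7 CPM in Nanog+E-cadherin+ replicates 1 to 3, against 2.71, 824 and 467 CPM in Nanog+E-cadherin- replicates 1 to 3. The part of these marker and background levels in the results that follow was not tested.

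In all 6 libraries the inhibitor mRNAs stood highest, Epcam and St14 came below them, and Prss8 was lowest, on the TPM scale, which adjusts for transcript length and library size. Spint2 averaged 133.6 ± 10.8 TPM in Nanog+E-cadherin+ cells and 132.9 ± 13.2 TPM in Nanog+E-cadherin- cells (SD, n = 3 each), above the level of 91.0% of the genes tested over all libraries. Spint1 averaged 94.4 ± 21.4 TPM in Nanog+E-cadherin+ cells and 83.6 ± 24.5 TPM in Nanog+E-cadherin- cells. The ranges of Spint2 and Spint1 did not meet, although Spint1 was below Spint2 by only 1.16-fold in the closest library. Epcam averaged 31.9 ± 2.55 TPM in Nanog+E-cadherin+ cells and 33.9 ± 11.6 TPM in Nanog+E-cadherin- cells. St14 averaged 28.4 ± 7.48 TPM in Nanog+E-cadherin+ cells and 22.5 ± 8.95 TPM in Nanog+E-cadherin- cells. These 2 neighbours overlapped, and St14 stood above Epcam in Nanog+E-cadherin+ replicate 3. Prss8 averaged 1.54 ± 0.431 TPM in Nanog+E-cadherin+ cells and 3.06 ± 2.87 TPM in Nanog+E-cadherin- cells, higher than only 13.2% of the genes tested, so prostasin mRNA was scarce beside that of its partner protease. These libraries are bulk samples, in which fewer cells with an mRNA and less of it per cell cannot be told apart.

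**Figure D1:**
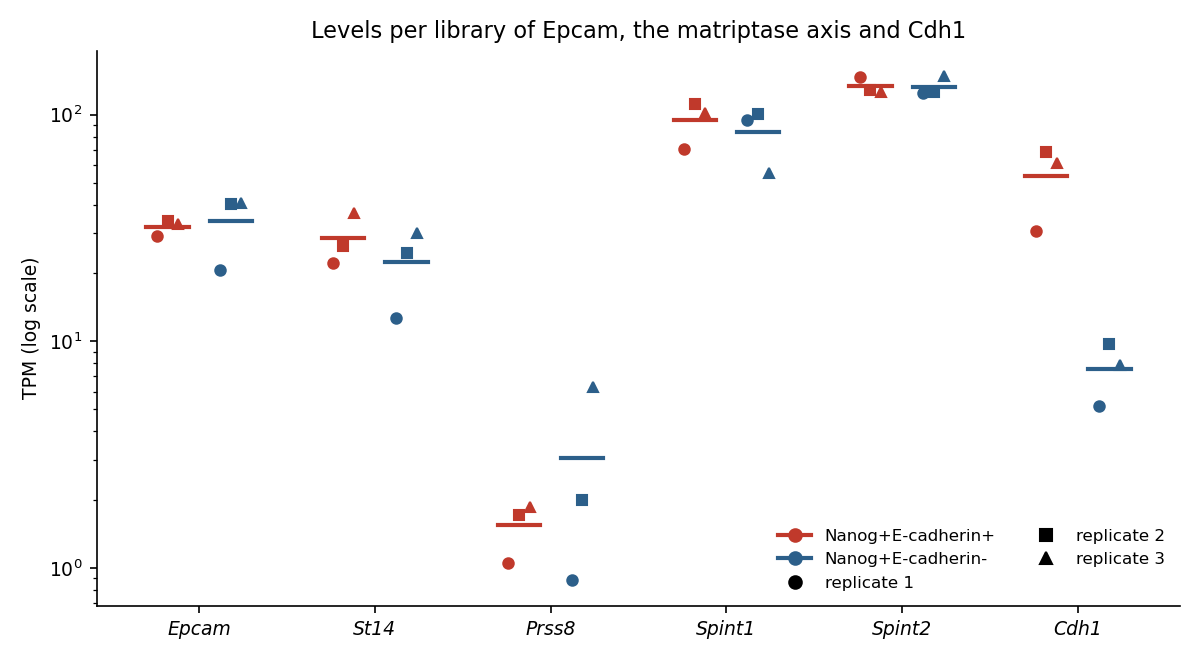
TPM on a log axis for each of the 5 genes and Cdh1, with 1 point per library, shapes for replicate numbers and a line at the mean of each population (n = 3). The populations overlap for each of the 5 genes, while the Cdh1 points lie between 30.5 and 68.6 TPM in Nanog+E-cadherin+ cells and between 5.20 and 9.68 TPM in Nanog+E-cadherin- cells.

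Cdh1 mRNA followed the gate set on its protein. It stood at 30.5, 68.6 and 61.2 TPM in Nanog+E-cadherin+ replicates 1 to 3, against 5.20, 9.68 and 7.84 TPM in Nanog+E-cadherin- replicates 1 to 3. Every Nanog+E-cadherin+ library was above every Nanog+E-cadherin- library. The log2 fold change in edgeR's quasi-likelihood test was 2.89 ± 0.24 (SE), with a Benjamini-Hochberg adjusted p of 0.0608 when the model held only the group and of 0.00177 when the replicate number was added as a block. It therefore passed edgeR's test with these settings in the blocked model and not in the other, while DESeq2's Wald test with group only gave it an adjusted p of 1.37e-23. Nanog, the other marker of the gate, stood at 115, 211 and 148 TPM in Nanog+E-cadherin+ replicates 1 to 3, against 142, 172 and 134 TPM in Nanog+E-cadherin- replicates 1 to 3, with overlap.

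Epcam mRNA showed no difference of this kind. It stood at 29.0, 33.8 and 33.0 TPM in Nanog+E-cadherin+ replicates 1 to 3, against 20.5, 40.5 and 40.7 TPM in Nanog+E-cadherin- replicates 1 to 3. The Nanog+E-cadherin+ libraries lay within 5 TPM of each other and inside the range of the Nanog+E-cadherin- libraries, of which replicate 1 was lowest. As CPM scaled by TMM, a scaling that allows for differences in RNA composition, Epcam averaged 37.5 ± 7.07 CPM in Nanog+E-cadherin+ cells and 35.3 ± 4.63 CPM in Nanog+E-cadherin- cells (SD, n = 3 each). Its log2 fold change was 0.09 ± 0.25 (SE), with a 95% interval from -0.48 to 0.66 and an adjusted p of 0.9999 in edgeR's test. On a linear scale this interval runs from 0.715-fold to 1.58-fold. On the log2(TPM + 1) scale the difference was -0.023 ± 0.35 (SE), so the sign depends on the scaling. On the CPM scale the log2 fold change was -0.071 ± 0.27 (SE) when Nanog+E-cadherin+ replicate 1 was left out, and -0.003 ± 0.28 when Nanog+E-cadherin- replicate 1 was. A two-sided exact permutation test of Epcam returned p = 0.7, where 3 libraries against 3 cannot go below 0.1. The order of the pair turned over between the populations. In TPM, Epcam was below Cdh1 in all 3 Nanog+E-cadherin+ libraries and above it in all 3 Nanog+E-cadherin- libraries. Cdh1, the gene of the gate, differed without overlap while Epcam overlapped, so this order says nothing particular about Epcam. The share of all genes that change order with Cdh1 in this way was not counted.

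The sequences just upstream of the transcription start are shown because Zeb and Snail repressors, which silence Cdh1 in mesenchymal cells, bind the E-box CAGGTG, read CACCTG on the other strand. Promoter windows were at hand for 3 of the 5 genes (Epcam, Spint1 and Spint2). They were taken from RefSeq on GRCm38.p6, while the counts were made on mm9. The window of Epcam, chr17:87635729-87635978 on the + strand, and that of Spint1, chr2:119237110-119237359 on the + strand, each hold the 250 bases before the start, 5′ to 3′, with CAGGTG or CACCTG in capitals.
Epcam: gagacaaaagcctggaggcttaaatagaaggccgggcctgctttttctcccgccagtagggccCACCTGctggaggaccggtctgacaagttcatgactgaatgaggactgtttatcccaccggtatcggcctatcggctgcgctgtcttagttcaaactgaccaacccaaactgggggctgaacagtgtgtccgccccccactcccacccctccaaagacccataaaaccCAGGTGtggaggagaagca
Spint1: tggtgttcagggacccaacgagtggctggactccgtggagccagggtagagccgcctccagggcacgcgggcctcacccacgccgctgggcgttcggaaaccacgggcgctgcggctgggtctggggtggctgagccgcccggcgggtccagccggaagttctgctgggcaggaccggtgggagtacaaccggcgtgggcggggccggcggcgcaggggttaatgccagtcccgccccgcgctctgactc
The Epcam window held 2 such E-boxes, the farther one ending 182 bases before its end and the nearer one 14. The Spint1 window held 0, as did the 168 bases upstream of Spint2. Over all 32851 promoter windows of the table, 17.2% held CAGGTG or CACCTG in 250 bases and 12.2% in 168. The exact letters AACCGGTT, a motif bound by grainyhead-like factors, were in none of the 3 windows and in 0.116% of all windows of 250 bases. Forms of this motif that differ in any letter were not searched. A match is a description of letters, and binding was not measured.

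St14 was the gene of the axis whose fitted difference was above 0 under all 22 alternatives tried, and it did not pass the test. It stood at 22.3, 26.3 and 36.7 TPM in Nanog+E-cadherin+ replicates 1 to 3, against 12.6, 24.6 and 30.2 TPM in Nanog+E-cadherin- replicates 1 to 3. Within each replicate number the Nanog+E-cadherin+ library was the higher, by 1.76-fold, 1.07-fold and 1.22-fold in TPM, but the populations overlapped. In TMM-scaled CPM St14 was also the higher in all 3, by 1.89-fold, 1.06-fold and 1.41-fold. On that scale 18.9% of all genes tested were higher in all 3 replicate numbers. As TMM-scaled CPM it averaged 64.8 ± 13.7 CPM in Nanog+E-cadherin+ cells and 45.7 ± 8.71 CPM in Nanog+E-cadherin- cells (SD, n = 3 each). Its log2 fold change was 0.51 ± 0.26 (SE), with a 95% interval from -0.10 to 1.12 and an adjusted p of 0.9999 in edgeR's test with group alone in the model. With the replicate block it was 0.50 ± 0.21 (SE, unadjusted p = 0.0373 and adjusted p = 0.435 in edgeR's test), and the upper bound of the blocked interval, 0.97, lay under the lower bound of the Cdh1 interval, 2.45. By exact permutation (two-sided) p was 0.2.

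Prss8 rested on few reads and on 1 library. It drew 27, 19.5 and 35 expected counts in Nanog+E-cadherin+ replicates 1 to 3, against 41, 20 and 49 in Nanog+E-cadherin- replicates 1 to 3. These correspond to 1.49, 1.51 and 1.75 TMM-scaled CPM in Nanog+E-cadherin+ cells, against 1.15, 1.73 and 5.14 CPM in Nanog+E-cadherin- cells. Nanog+E-cadherin- replicate 3, the shallowest library, stood apart from the other 5. The exact 95% Poisson interval of its level was 3.80 to 6.79 CPM, above those of the others, of which the highest bound was 2.67 CPM, and such intervals cover counting error only. The log2 fold change was -0.74 ± 0.81 (SE), with a 95% interval from -2.64 to 1.16 and an adjusted p of 0.9999 in edgeR's test, and it was 0.15 ± 0.64 without that library. By exact permutation (two-sided) p was 0.8. The summed background genes were high in Nanog+E-cadherin- replicate 3 and higher still in replicate 2, where Prss8 was at 1.73 CPM. Without both of these libraries, which leaves 1 in that population, the log2 fold change of Prss8 was 0.45. Whether background sequence bears on the Prss8 level was not tested. With all libraries, the 95% interval of the fold change ran from 0.160-fold to 2.23-fold on a linear scale.

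For Spint1 and Spint2 no difference larger than the spread between replicates was detected. Spint1 stood at 70.4, 111 and 101 TPM in Nanog+E-cadherin+ replicates 1 to 3, against 94.8, 101 and 55.5 TPM in Nanog+E-cadherin- replicates 1 to 3. The lowest library was Nanog+E-cadherin- replicate 3, and within replicate numbers the TPM ratio changed sign, at 0.742-fold, 1.11-fold and 1.83-fold. In TMM-scaled CPM the Nanog+E-cadherin+ libraries were tight, at 119 ± 2.56 CPM, against 105 ± 49.0 CPM in Nanog+E-cadherin- cells (SD, n = 3 each). The log2 fold change of Spint1 was 0.18 ± 0.35 (SE), with a 95% interval from -0.65 to 1.001 and an adjusted p of 0.9999 in edgeR's test. It was -0.13 ± 0.23 without Nanog+E-cadherin- replicate 3, so its sign rested on that library.

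Spint2 was the most even of the 5 in TPM, with a coefficient of variation of 8.09% over the 6 libraries, where the other 4 had 23.0% to 87.5%. It stood at 146, 129 and 126 TPM in Nanog+E-cadherin+ replicates 1 to 3, against 125.2, 125.3 and 148 TPM in Nanog+E-cadherin- replicates 1 to 3. The evenness depends on the scale, since in TMM-scaled CPM the coefficient of variation was 28.5%, with 143 CPM in Nanog+E-cadherin+ replicate 1, 114 CPM in Nanog+E-cadherin- replicate 1 and 74.7 to 82.5 CPM in the other 4 libraries. The log2 fold change was 0.15 ± 0.31 (SE), with a 95% interval from -0.57 to 0.88 and an adjusted p of 0.9999 in edgeR's test, and -0.19 ± 0.28 without Nanog+E-cadherin+ replicate 1. Spint2 is listed with 2 RefSeq transcripts and each of the other 4 genes with 1. The mean transcript length of Spint2 was 1304, 1303 and 1301 bases in Nanog+E-cadherin+ replicates 1 to 3, against 1306, 1299 and 1289 bases in Nanog+E-cadherin- replicates 1 to 3. Nanog+E-cadherin- replicate 3 had the shortest mean. By exact permutation (two-sided) p was 0.7 for Spint1 and 0.7 for Spint2.

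**Figure D2:**
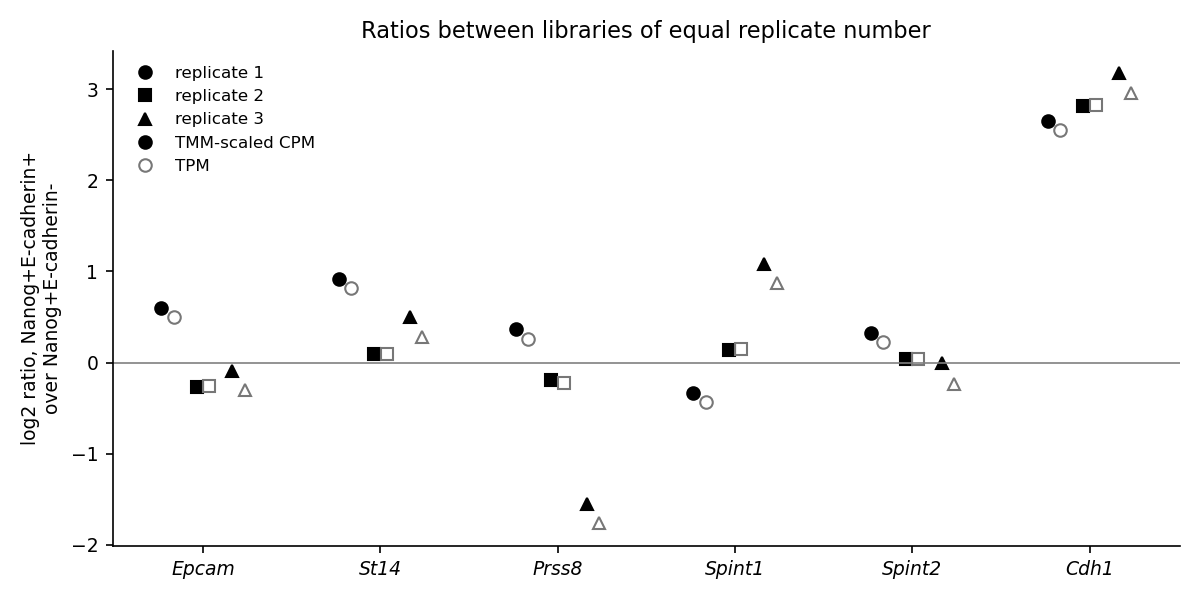
Log2 ratio of the Nanog+E-cadherin+ library over the Nanog+E-cadherin- library of the same replicate number, for each gene, with filled symbols for TMM-scaled CPM and open symbols for TPM. Only St14 and Cdh1 have all 3 ratios above 0 on both scales, and the ratios of Cdh1 lie between 2.55 and 3.18.

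None of the 5 genes passed edgeR's test at an adjusted p of 0.05. With group only, 0 of 5 passed and 0 had an unadjusted p under 0.05, where 0% of the 13460 genes tested passed and 2.67% had such an unadjusted p. With the replicate block 0 of 5 passed, against 0.305% of all genes, made up of 0.215% higher and 0.0892% lower. With that block 1 gene, St14, had an unadjusted p under 0.05, against 10.7% of all genes in either direction and 5.51% higher. With group only, DESeq2's Wald test passed 0 of 5 and gave 0 an unadjusted p under 0.05, against 0.156% and 3.64% of all genes, with no adjusted p for Epcam and Prss8. In limma-voom with group only the counts were again 0 and 0 of 5, against 0% and 1.9% of all genes. With the block, DESeq2 and limma-voom called 0 of 5, against 2.26% and 1.96% of all genes. Each of these blocked fits gave 1 of the 5, St14, an unadjusted p under 0.05, against 11.8% of all genes in DESeq2 and 13.3% in limma-voom. In TMM-scaled CPM 0 of the 5 genes had populations without overlap, against 3.74% of all genes higher and 3.25% lower. The median log2 fold change of the 5 genes, which was not tested, was 0.15 with group only, and that of all genes tested was -0.01.

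**Figure D3:**
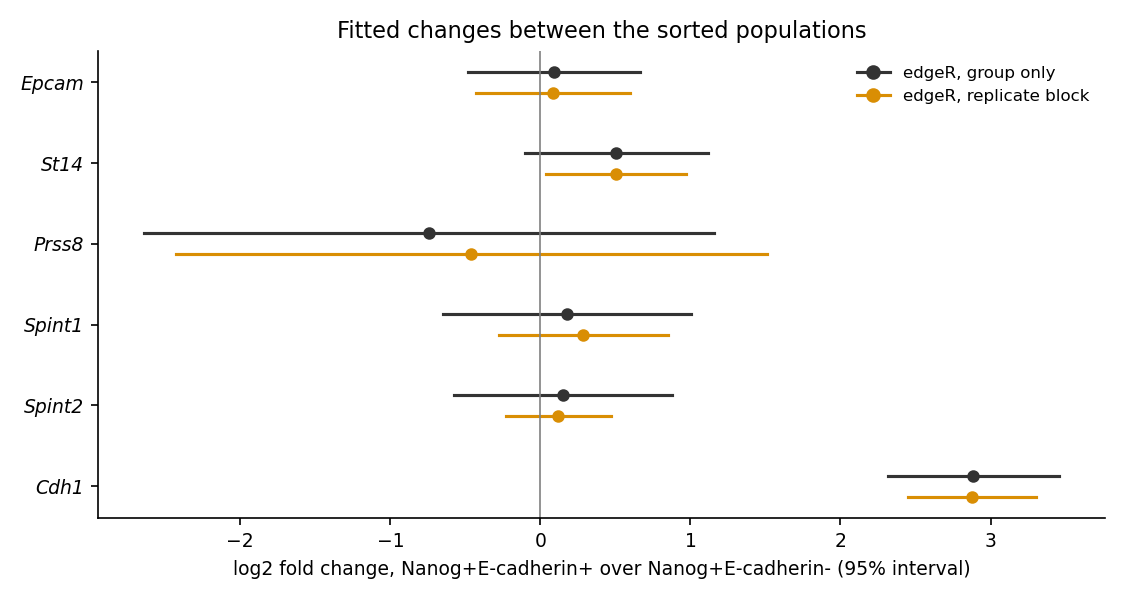
Log2 fold change of Nanog+E-cadherin+ over Nanog+E-cadherin- cells with its 95% interval for each gene, in edgeR's fit with group only and with the replicate block. The group-only intervals of all 5 genes hold 0 and end below the interval of Cdh1, which starts at 2.32.

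The change of each gene was then set against that of Cdh1 in the same library, a ratio that library scaling does not alter. Epcam had a TPM ratio to Cdh1 of 0.951, 0.493 and 0.539 in Nanog+E-cadherin+ replicates 1 to 3, against 3.95, 4.18 and 5.19 in Nanog+E-cadherin- replicates 1 to 3. St14 had a mean ratio of 0.571 ± 0.175 in Nanog+E-cadherin+ cells and 2.94 ± 0.789 in Nanog+E-cadherin- cells (SD, n = 3 each). For both genes the ratios were under 1 in all Nanog+E-cadherin+ libraries and above 1 in all Nanog+E-cadherin- libraries. Spint1 had a mean ratio of 1.86 ± 0.384 in Nanog+E-cadherin+ cells and 11.9 ± 5.73 in Nanog+E-cadherin- cells, and Spint2 a mean ratio of 2.91 ± 1.62 in Nanog+E-cadherin+ cells and 18.6 ± 5.57 in Nanog+E-cadherin- cells. Prss8 had a ratio between 0.0249 and 0.0344 in Nanog+E-cadherin+ cells and between 0.169 and 0.805 in Nanog+E-cadherin- cells. The populations were separate in the ratio to Cdh1 for each of the 5 genes. Cdh1 is the gene of the gate and was itself without overlap, and the share of all genes that separate in this way was not counted. In limma's test on log2 CPM minus that of Cdh1, each of the 5 changed less than Cdh1. The difference was -2.79 ± 0.35 for Epcam, -2.37 ± 0.35 for St14, -3.32 ± 0.81 for Prss8, -2.58 ± 0.38 for Spint1 and -2.76 ± 0.42 for Spint2 (log2, SE). The adjusted p in limma was 8.58e-05 for Epcam, 0.000189 for St14, 0.00359 for Prss8, 0.000197 for Spint1 and 0.000239 for Spint2. This is not particular to the 5, because 91.4% of the 13459 genes tested besides Cdh1 passed as lower than Cdh1, and 94.3% with the replicate block. For each of the 5 differences an exact permutation gave p = 0.1, the smallest it can give.

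**Figure D4:**
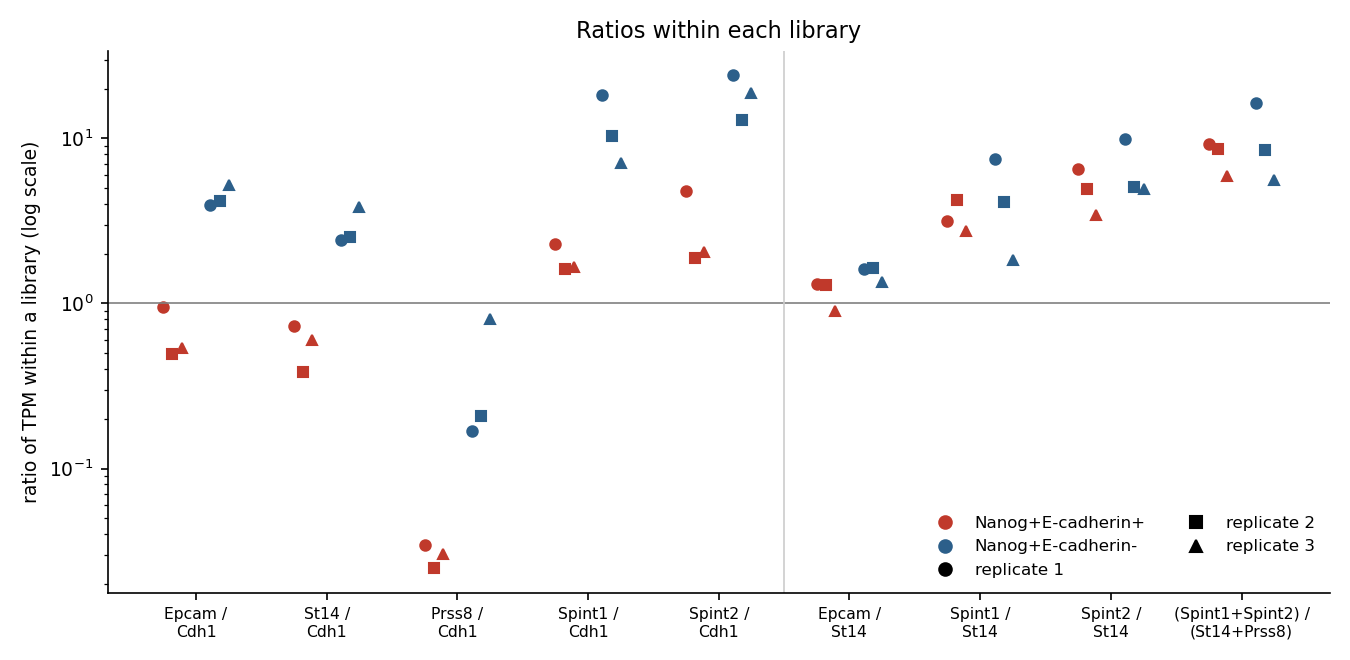
Ratio of TPM values within each library on a log axis, to Cdh1 on the left of the grey line and between the genes of the axis on the right, with 1 point per library and a horizontal line at 1. All Epcam-to-Cdh1 points lie between 0.493 and 0.951 in Nanog+E-cadherin+ cells and between 3.95 and 5.19 in Nanog+E-cadherin- cells, while the ratio of inhibitors to proteases overlaps.

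The balance of inhibitor to protease mRNA overlapped between the populations. Spint1 and Spint2 together exceeded St14 and Prss8 together by 9.28-fold, 8.59-fold and 5.89-fold in Nanog+E-cadherin+ replicates 1 to 3, against 16.3-fold, 8.50-fold and 5.58-fold in Nanog+E-cadherin- replicates 1 to 3 (TPM). Nanog+E-cadherin- replicate 1 was highest, and the Nanog+E-cadherin+ libraries lay within the range of the other population. Spint1 exceeded St14 by 3.39 ± 0.767-fold in Nanog+E-cadherin+ cells and by 4.48 ± 2.85-fold in Nanog+E-cadherin- cells (SD, n = 3 each). Among the 6 ratios between genes of the axis, Epcam to St14 and St14 to Prss8 did not overlap between the populations. Epcam to St14 was 1.30, 1.29 and 0.897 in Nanog+E-cadherin+ replicates 1 to 3, against 1.62, 1.65 and 1.35 in Nanog+E-cadherin- replicates 1 to 3. St14 to Prss8 was 21.2, 15.4 and 19.8 in Nanog+E-cadherin+ replicates 1 to 3, against 14.4, 12.3 and 4.78 in Nanog+E-cadherin- replicates 1 to 3. Both were singled out after their values were seen and were not tested, and St14 to Prss8 rests on the few Prss8 counts.

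The other genes of the pathway were described from 6 lists with 100 genes, of which 99 were found and 69 passed the filter on low counts. In edgeR's test with group only 0 of the 69 passed, and 3 were higher and 1 lower at an unadjusted p under 0.05, which is 5.8% of them against 2.67% of all genes. With the replicate block 0 of 69 passed, against 0.305% of all genes. At an unadjusted p under 0.05 in that fit 7 were higher and 6 lower, which is 18.8% of the 69 against 10.7% of all genes. With group only, DESeq2's Wald test and limma-voom called 0 of the 69 each, with 8.7% and 5.8% of them under that unadjusted p, against 3.64% and 1.9% of all genes. With the block these tools again called 0 of the 69 each, with 20.3% and 23.2% of them under it, against 11.8% and 13.3% of all genes. The shares of the lists were thus above those of all genes in each of the 6 fits, a description that was not tested, since the lists were chosen with earlier results known. DESeq2 with group only gave no adjusted p for 48 of the 69.

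Among EpCAM's partners and the enzymes that cut it, 17 of 20 genes were tested, 7 had a fitted log2 fold change above 0, and the median was -0.04 against -0.01 for all genes. The claudin Cldn7, which binds EpCAM, stood at 2.24, 1.89 and 1.95 TPM in Nanog+E-cadherin+ replicates 1 to 3, against 0.290, 0.190 and 0 TPM in Nanog+E-cadherin- replicates 1 to 3. These levels did not overlap, but they are low and did not pass edgeR's test (unadjusted p = 0.0224, adjusted p = 0.9999). Cldn6, a claudin of early embryonic epithelia, was likewise higher in every Nanog+E-cadherin+ library, with 7.75 ± 2.15 TPM against 2.87 ± 1.47 TPM in Nanog+E-cadherin- cells (SD, n = 3 each; adjusted p = 0.9999 in edgeR's test). In TMM-scaled CPM 3 of the 17 were higher without overlap and 1 lower, against 3.74% and 3.25% of all genes. The others, named after their values were seen, were the claudin Cldn4, with 21.8 ± 5.38 TPM in Nanog+E-cadherin+ cells and 8.84 ± 5.52 TPM in Nanog+E-cadherin- cells, and Psen2, a presenilin of the gamma-secretase complex, which had a log2 fold change of -0.54 ± 0.23 (SE, unadjusted p = 0.0492 and adjusted p = 0.9999 in edgeR's test). The claudin of highest level in the list, Cldn3, also named after its values were seen, was fitted lower, with overlap. It averaged 81.8 ± 21.9 TPM in Nanog+E-cadherin+ cells and 120 ± 39.2 TPM in Nanog+E-cadherin- cells. Its log2 fold change was -0.40 ± 0.41 (SE, adjusted p = 0.9999 in edgeR's test). With the replicate block it was -0.44 ± 0.19 (SE, unadjusted p = 0.0489 and adjusted p = 0.464 in edgeR's test). The tetraspanin Cd9 averaged 221 ± 15.4 TPM in Nanog+E-cadherin+ cells and 261 ± 135 TPM in Nanog+E-cadherin- cells. Beta-catenin (Ctnnb1), the cadherin-bound transcription co-factor, averaged 627 ± 218 TPM in Nanog+E-cadherin+ cells and 740 ± 115 TPM in Nanog+E-cadherin- cells.

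The rest of the membrane protease family was mostly below the filter on low counts. Of 19 other membrane-anchored serine proteases 3 passed the filter, namely Hpn (hepsin), Tmprss5 and Prss41, and 3 were at 0 in all libraries, namely Tmprss11d, Prss21 and Prss27. Tmprss5, a protease of the nervous system, averaged 26.2 ± 19.7 TPM in Nanog+E-cadherin+ cells and 38.3 ± 27.5 TPM in Nanog+E-cadherin- cells (SD, n = 3 each), the level nearest to that of St14. Hpn stood at 1.82, 1.34 and 0.950 TPM in Nanog+E-cadherin+ replicates 1 to 3, against 0.480, 0 and 0.140 TPM in Nanog+E-cadherin- replicates 1 to 3, without overlap, and its adjusted p in edgeR's test was 0.9999. In TMM-scaled CPM 1 of the 3 tested, Hpn, was higher without overlap and 0 were lower, against 3.74% and 3.25% of all genes. Prss41 averaged 4.82 ± 0.331 TPM in Nanog+E-cadherin+ cells and 3.36 ± 2.14 TPM in Nanog+E-cadherin- cells.

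Among other Kunitz and serpin inhibitors, 6 of 10 were tested, 4 had a fitted value above 0, and the median log2 fold change was 0.04. App and Aplp2, which have forms with a Kunitz domain, averaged 209 ± 117 and 169 ± 54.8 TPM in Nanog+E-cadherin+ cells, against 212 ± 92.7 and 175 ± 45.4 TPM in Nanog+E-cadherin- cells (SD, n = 3 each). Serpina1a, an antitrypsin gene, had a log2 fold change of -1.82 ± 1.22 (SE). Serpina1a is 1 of several near-identical copies, so its counts are uncertain.

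Of 15 substrates and receptors of matriptase and prostasin, 8 were tested, 3 had a fitted value above 0, and the median log2 fold change was -0.29. F2rl1, the protease-activated receptor PAR2 that matriptase cleaves, averaged 27.1 ± 11.4 TPM in Nanog+E-cadherin+ cells and 26.2 ± 18.1 TPM in Nanog+E-cadherin- cells (SD, n = 3 each). The urokinase receptor Plaur stood at 4.67, 3.43 and 9.06 TPM in Nanog+E-cadherin+ replicates 1 to 3, against 2.15, 1.35 and 1.73 TPM in Nanog+E-cadherin- replicates 1 to 3, without overlap. In TMM-scaled CPM 1 of the 8, Plaur, was higher without overlap and 0 were lower, against 3.74% and 3.25% of all genes. The ligand of Plaur, Plau, averaged 0.367 ± 0.255 TPM in Nanog+E-cadherin+ cells and 1.31 ± 0.983 TPM in Nanog+E-cadherin- cells. The hepatocyte growth factor receptor Met averaged 3.55 ± 1.95 TPM in Nanog+E-cadherin+ cells and 7.37 ± 5.72 TPM in Nanog+E-cadherin- cells. In edgeR's test with group only the unadjusted p was 0.0522 for Plaur and 0.196 for Met, with an adjusted p of 0.9999 for both, while Hgf, the ligand of Met, did not pass the filter on low counts.

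The 19 other epithelial junction and surface genes all passed the filter on low counts. Of these 11 had a fitted value above 0, the median log2 fold change was 0.20, and in TMM-scaled CPM 0 were without overlap between populations. Cd24a, a surface glycoprotein of many progenitors, averaged 263 ± 28.8 TPM in Nanog+E-cadherin+ cells and 371 ± 44.5 TPM in Nanog+E-cadherin- cells, without overlap on this scale but with overlap in TMM-scaled CPM. The hemidesmosome integrin Itgb4 averaged 126 ± 75.3 TPM in Nanog+E-cadherin+ cells and 120 ± 75.4 TPM in Nanog+E-cadherin- cells (SD, n = 3 each). The mucin Muc1 and the laminin receptor Bcam had log2 fold changes of -0.87 ± 0.58 and 1.03 ± 0.69 (SE). All 4 had an adjusted p of 0.9999 in edgeR's test.

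Of 17 transcription factors and splicing regulators of epithelial surface genes, 16 were tested, 5 had a fitted value above 0, and the median log2 fold change was -0.28. Grhl2, a grainyhead-like activator of epithelial junction genes, stood at 1.01, 1.10 and 0.840 TPM in Nanog+E-cadherin+ replicates 1 to 3, against 0.200, 0.220 and 0 TPM in Nanog+E-cadherin- replicates 1 to 3. The splicing regulator Esrp1 stood at 0.550, 0.330 and 0.610 TPM in Nanog+E-cadherin+ replicates 1 to 3, against 0.110, 0 and 0 TPM in Nanog+E-cadherin- replicates 1 to 3. Both were higher without overlap and both were low in level, with unadjusted p-values of 0.0462 and 0.0611 and an adjusted p of 0.9999 in edgeR's test. In TMM-scaled CPM these were the 2 of 16 that were higher without overlap, and 1 was lower, against 3.74% and 3.25% of all genes. The lower one, named after its values were seen, was Ovol1, an epithelial zinc finger repressor, with 1.49, 0.907 and 0.750 CPM in Nanog+E-cadherin+ replicates 1 to 3, against 1.49, 3.55 and 2.10 CPM in Nanog+E-cadherin- replicates 1 to 3. Its closest libraries were nearly equal. Grhl1, Grhl3 and Esrp2, family members of Grhl2 and Esrp1 also named after their values were seen, were fitted lower with group only. Their log2 fold changes were -0.25 ± 0.97, -0.61 ± 0.64 and -0.12 ± 1.41 (SE), and 0.43, -0.41 and 0.84 with the replicate block. Grhl1 averaged 5.27 TPM in Nanog+E-cadherin+ cells and 6.03 TPM in Nanog+E-cadherin- cells, and Grhl3 averaged 9.54 and 14.6 TPM. None of these passed edgeR's test. The E-cadherin repressors Zeb1 and Zeb2 were measured in every library, with log2 fold changes of -0.32 ± 0.39 and -0.65 ± 0.33 (SE), and neither passed.

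**Figure D5:**
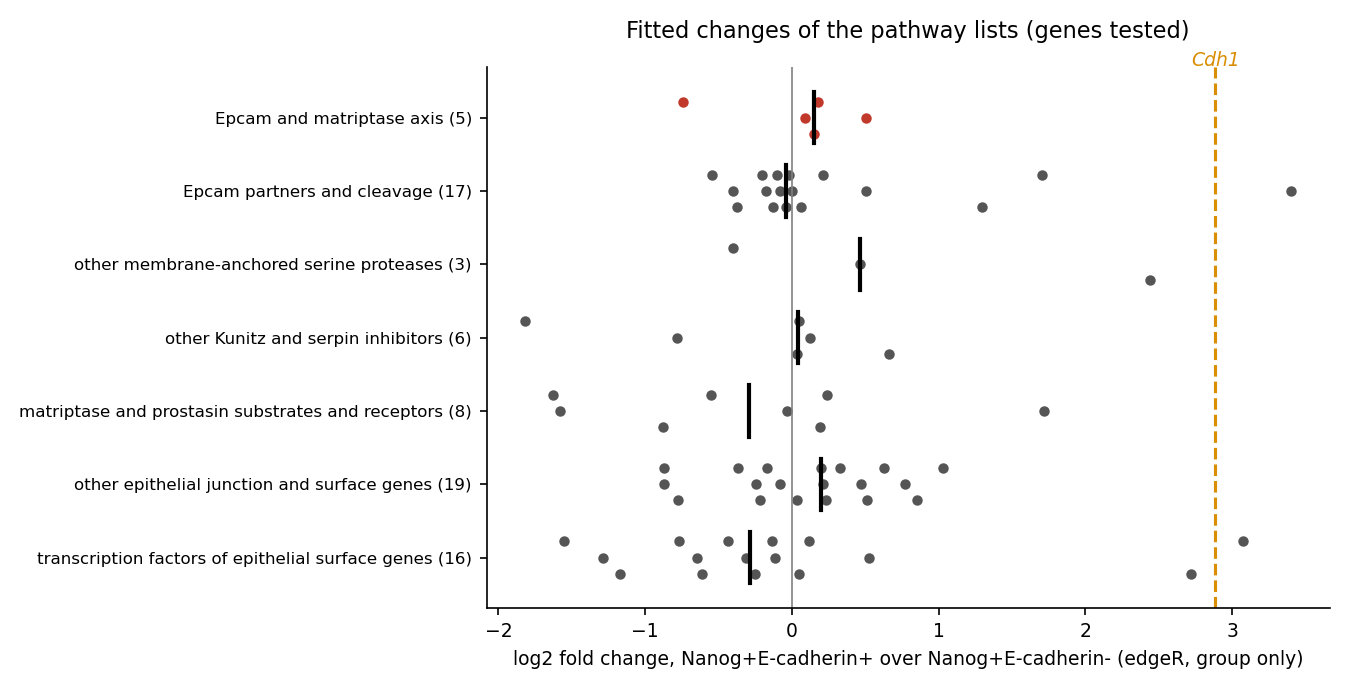
Log2 fold change of Nanog+E-cadherin+ over Nanog+E-cadherin- cells in edgeR's fit with group only, with 1 point per gene tested, the 5 genes on the top row, the number of genes tested in brackets, a black bar at each list's median and a dashed line at Cdh1. The medians lie between -0.29 and 0.46, and the genes beyond the Cdh1 line are Cldn7 and Esrp1, both low in level.

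The 5 genes differed from each other in their pattern over the 6 libraries, with Pearson's r of log2 CPM between St14 and Epcam at 0.57 and that of the other pairs at or below 0.40. Prss8 and Spint1 had an r of -0.99, and Nanog+E-cadherin- replicate 3 was the highest library for Prss8 and the lowest for Spint1. The genes most like each by the same measure over 6 libraries, out of 11094 compared (11095 for Prss8), were Scfd2, Tdh and 4632434I11Rik for St14 (r from 0.96 to 0.98) and 2010015L04Rik, Orai1 and Pdia3 for Epcam (r from 0.91 to 0.93). For Spint1 they included Gpr180 and Mapk14. They were Chchd1, Psmd12 and Farsb for Spint2, and Supt7l, Zfp738 and Ccdc66 for Prss8 (r from 0.9896 to 0.9998 for Spint1, Spint2 and Prss8). These values rest on 6 points that share library depth and replicate numbers, and each was picked as the highest of many. The r with Cdh1 was 0.15 for Epcam, 0.68 for St14, -0.37 for Prss8, 0.35 for Spint1 and 0.065 for Spint2, given as a description with no test.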

How the data were processed

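Per the submitters' processing notes, the tools were Bowtie and RSEM 1.2.4 and the build mm9. Their settings were not given in the sources used here. Without a stated strand, reads of a gene and an antisense partner cannot be separated. The deposited expected counts were rounded to whole numbers. TPM values were used as the authors gave them, and FPKM columns, also deposited, were left aside. Titles of the samples gave the group and replicate.

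The main test was edgeR 4.0.16 (R 4.3.3) with TMM, filterByExpr (minimum count 10, minimum total 15) and Benjamini-Hochberg adjustment over 13460 genes, group as the only term. Standard errors are the log2 fold change over the square root of F. Differences from Cdh1 used limma 3.58.1 with a trend on log2 TMM-scaled CPM. DESeq2 1.42.0 and limma-voom were alternatives. The edgeR fits and the group-only difference from Cdh1 were tested on simulated data, and the other steps were not. The simulated data were built with replicate effects, so they cannot check the pairing. Same-numbered libraries correlated at 0.75, 0.41 and 0.48 in their deviations from group means, above the limit of 0.1, so the replicate number was taken as a pairing, which the values and not the labels give. The limit alone does not single out equal numbers. Nanog+E-cadherin+ replicate 2 with Nanog+E-cadherin- replicate 3 gave 0.122, and Nanog+E-cadherin+ replicate 3 with Nanog+E-cadherin- replicate 2 gave 0.102. The same-numbered library was the closest for every library. All results with the block rest on this inferred pairing. The biological coefficient of variation was 0.285 with that block and 0.499 without. Named genes are the 5, the gate genes, and of each list any gene that passed, the 2 of highest mean CPM and the 2 of smallest p. The genes and lists were chosen with earlier results of these data known. Some genes that this rule names are not reported here.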

Additional observations from a re-analysis of the deposited data

How the results depend on the processing

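No processing choice brought any of the 5 genes past the threshold, over 22 alternatives each, and each of the 5 kept a difference from Cdh1 that passed over 15 alternatives, as did 86.3% to 98.8% of all genes. The replicate block changed no call among the 5 (0 passed with it and without it). In edgeR, among the gate genes and the other pathway genes, it changed only that of Cdh1. Among the cell type markers it changed only that of Tdgf1. St14 stayed above 0 in all 22 alternatives, between 0.32 and 0.82 on the log2 scale (adjusted p from 0.187 to 0.99998), and the difference of Epcam from Cdh1 stayed between -3.16 and -2.56 (adjusted p from 8.40e-15 to 0.00393). The sign of the other log2 fold changes was not stable, and the cause was not tested. Epcam was -0.023 on log2(TPM + 1), -0.021 on log2(TPM + 0.1), -0.023 on log2(TPM + 1) with the replicate block and -0.15 with the replicate block without both libraries numbered 1. With 1 library left out, it ran from -0.071 to 0.20. Without both libraries numbered 3, with the replicate block, Prss8 was 0.10 and Spint1 -0.091. Without both libraries with background sequence, which leaves Nanog+E-cadherin- replicate 1 alone and assumes that it varies like the other group, Prss8 was 0.45, Spint1 -0.37 and Spint2 -0.19. With 1 library left out, Prss8 ran from -1.10 to 0.15, Spint1 from -0.13 to 0.56, Spint2 from -0.19 to 0.37 and St14 from 0.38 to 0.68. Of the other pathway genes, 0 of 69 passed with the replicate block. With any library left out, 0 of the 70 to 74 that then passed the filter did, and these were not all the same genes. Prss8 rests on 19.5 to 49 expected counts per library, and its sign turned without Nanog+E-cadherin- replicate 3. Over all 13460 genes, the number called was 0 in edgeR with group only and 41 with the replicate block, 21 and 304 in DESeq2, and 0 and 264 in limma-voom, in that order of fits. Cdh1 was above 0 in all 22 alternatives and passed in 9 of them.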
